A study of Saccharomyces cerevisiae with 21 samples.

Results

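The nuclear genes of the yeast oxidative phosphorylation system were followed through 7 conditions of nascent RNA-seq. The set is a fixed list of 42 open reading frames (ORFs), listed by name and not by a rule on measured values, out of 7126 features in the deposited table. Earlier results of these data were known when the list was chosen. It holds 3 NADH dehydrogenases, 4 subunits of complex II, 9 of complex III, 2 cytochromes c, 9 subunits of complex IV, 13 subunits of the ATP synthase and 2 small proteins that regulate the ATP synthase. All 42 passed the filter on low counts and were tested together with 5742 protein-coding genes in all.

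The study asked what the chromatin remodeller RSC, through its ATPase Sth1, and the DNA-binding factor Rap1 do to the direction and level of transcription at yeast promoters. RNA bound to RNA polymerase II (Pol II) was isolated through the FLAG-tagged subunit Rpb3 and sequenced, so the values report RNA still attached to the polymerase, as a share of each library. The groups given IAA, the auxin, at 500 µM for 2 h were cells with the STH1-AID allele, cells with the RAP1-AID allele and cells with both (RAP1-AID/STH1-AID, or double-degron, cells). Their controls were the same 3 strains given DMSO, the solvent, and the last group was untreated wild-type (WT) cells, each with 3 biological replicates. All strains were MATa derivatives of BY4741 (his3D1, leu2D0, met15D0, ura3D0) with RPB3-3xFLAG::NATMX, grown in YPD, a rich glucose medium. The degron strains carried STH1-3V5-IAA7::KanMX6, RAP1-3V5-IAA7::KanMX6 or both alleles, and osTIR, the F-box protein through which IAA leads to degradation of a tagged protein, from the GPD1 promoter at LEU2. WT cells had no degron allele and no osTIR and received no DMSO, so these differences between a control and WT cannot be told apart. The values were not scaled to a spike-in, so each is a share of a library, and fewer cells of a kind cannot be told apart from less RNA per cell. Degradation acts on the protein, and the RNA values of STH1 and RAP1 therefore do not check it.

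Oxidative phosphorylation passes electrons from NADH and succinate to oxygen and uses the proton gradient that results to make ATP. Budding yeast has no proton-pumping complex I. Single-subunit dehydrogenases on the inner and outer face of the inner membrane (Ndi1, Nde1 and Nde2) take its place, succinate enters through complex II, complex III passes electrons to cytochrome c, complex IV passes them to oxygen, and the ATP synthase makes ATP. Most subunits are nuclear-encoded, while the catalytic cores of complexes III and IV and the membrane ring of the ATP synthase are completed by subunits made inside mitochondria. Many of these nuclear genes are subject to glucose repression. The Hap2, Hap3, Hap4 and Hap5 proteins form an activator that binds CCAAT elements in many of their promoters.

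The libraries held between 18289832 and 23182315 counts, and the 42 members took between 0.284% and 0.571% of them. Markers of a cells, the mating type of these strains, summed to between 729 and 1556 CPM (counts scaled to a common library size) in every library, against 27.5 to 187 CPM for 4 markers of alpha cells, of which 1 had no count in any WT library. With IAA both sums were higher in STH1-AID cells (alpha 151 to 177 CPM against 45.2 to 55.4 CPM with DMSO, a 1146 to 1361 CPM against 729 to 792 CPM) and in double-degron cells (alpha 136 to 187 CPM against 43.4 to 48.2 CPM, a 1328 to 1556 CPM against 945 to 1042 CPM). The part of these markers in the results on the members was not tested.

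The promoters are shown first, because most members share a sequence feature that the choice of genes did not use. The 300 bases before each ORF were read from the RefSeq genome (R64), and the motif CCAAT was searched on both strands. It was found in 36 of the 42 windows (85.7%), against 41.8% of the windows of 6001 protein-coding genes. The windows without it were those of COX4, COR1, CYC1, CYC7, CYT1 and NDE2. Of these, CYC1, NDE2, CYC7 and CYT1 had the 4 largest rises after co-depletion, described below. A longer form, ACCAATNA, which contains the same core, was in 17 windows (40.5%), against 5.22% of all genes. The following 4 windows belong to COX5A and COX5B, whose levels moved in opposite directions after Sth1 depletion, to ATP20, the member with the largest fall, and to QCR8, the member furthest below WT in the DMSO controls. They are written 5′ to 3′ on the strand of the gene, and capitals mark CCAAT or its reverse complement.
COX5A: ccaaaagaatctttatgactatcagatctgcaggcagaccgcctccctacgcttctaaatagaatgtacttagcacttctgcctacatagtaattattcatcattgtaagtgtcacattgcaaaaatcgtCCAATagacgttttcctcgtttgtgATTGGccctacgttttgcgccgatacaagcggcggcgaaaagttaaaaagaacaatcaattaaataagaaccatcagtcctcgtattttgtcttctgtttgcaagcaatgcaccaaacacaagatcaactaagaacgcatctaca
COX5B: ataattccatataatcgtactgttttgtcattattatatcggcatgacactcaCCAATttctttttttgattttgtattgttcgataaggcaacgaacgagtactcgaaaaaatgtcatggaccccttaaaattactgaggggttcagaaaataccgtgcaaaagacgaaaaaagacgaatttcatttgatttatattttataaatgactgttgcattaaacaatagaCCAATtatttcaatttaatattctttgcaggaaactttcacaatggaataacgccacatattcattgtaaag
ATP20: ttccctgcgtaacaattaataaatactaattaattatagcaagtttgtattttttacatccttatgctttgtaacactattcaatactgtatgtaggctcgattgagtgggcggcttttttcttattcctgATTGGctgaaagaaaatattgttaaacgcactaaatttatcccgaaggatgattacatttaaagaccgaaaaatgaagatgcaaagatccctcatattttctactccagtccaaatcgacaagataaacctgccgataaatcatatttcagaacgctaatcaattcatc
QCR8: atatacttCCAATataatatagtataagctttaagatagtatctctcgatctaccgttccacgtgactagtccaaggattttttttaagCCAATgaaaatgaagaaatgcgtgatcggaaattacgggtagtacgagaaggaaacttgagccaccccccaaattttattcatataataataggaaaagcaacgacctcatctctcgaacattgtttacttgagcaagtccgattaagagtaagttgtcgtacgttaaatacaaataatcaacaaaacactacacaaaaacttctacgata
The windows lie at chrXIV:531425-531724, + strand (COX5A), chrIX:154922-155221, + strand (COX5B), chrXVI:599570-599869, + strand (ATP20) and chrX:106134-106433, + strand (QCR8), each ending at the base before the start codon. The marked cores begin 170 and 145 bases before the ORF in COX5A, 247 and 72 bases in COX5B, 169 bases in ATP20 and 292 and 211 bases in QCR8. In COX5B the core at 72 bases is part of the longer form. A match of letters is a description of the window and no measure of binding.

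**Figure D1:**
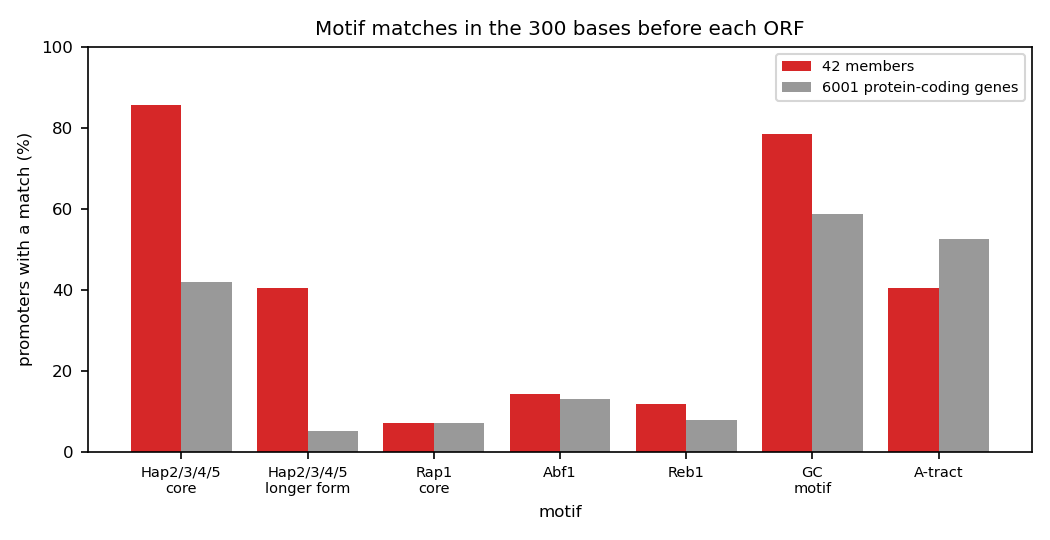
Share of promoter windows (y axis, percent; windows of 300 bases before the ORF) with at least 1 match to each motif (x axis), in the 42 members (red) and in 6001 protein-coding genes (grey). CCAAT stands at 85.7% in the members and 41.8% in all genes, and the longer form at 40.5% and 5.22%.

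Other motifs were searched in the same windows. The GC motif (CGCG or CGGG) was in 33 windows (78.6%), against 58.8% of all genes, and a run of 7 A was in 17 windows (40.5%), against 52.6%. The Rap1 core CCCNNACA was in 3 windows (7.14%), against 7.10%, the Abf1 consensus in 6 (14.3%), against 12.9%, and the Reb1 motif TTACCCG in 5 (11.9%), against 7.90%. Both strands were read each time. Among the 12 members that fell after Sth1 depletion, CCAAT was in 11 windows and the Abf1 consensus in 0. Among the 15 that rose, CCAAT was in 11 and the Abf1 consensus in 3. In the 15 members that did not pass, CCAAT was in 14 and the Abf1 consensus in 3. These counts are small and were not tested.

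In WT cells the members spanned a wide range of levels per length (TPM, scaled to gene length and library). NDE1 (YMR145C), the main external NADH dehydrogenase, stood highest at 997 ± 86.1 TPM (SD, n = 3, as for all TPM here), above 98.6% of protein-coding genes. It was followed by ATP2 (YJR121W), the catalytic beta subunit of the ATP synthase, at 608 ± 104.9 TPM, by ATP14 (YLR295C), a stalk subunit, at 399.6 ± 9.002 TPM, and by COX9 (YDL067C), a small subunit of complex IV, at 394 ± 52.5 TPM. ATP14 and COX9 did not differ beyond their spread, and COX9 has an ORF of only 180 bases, for which a level per length is uncertain. In all, 11 members have ORFs under 300 bases, and the 42 run from 180 to 1923 bases. At the low end, COX5B (YIL111W) had 16.4 ± 0.597 TPM, and CYC7 (YEL039C), the minor isoform of cytochrome c, and NDE2 (YDL085W), the second external NADH dehydrogenase, had 0.493 ± 0.490 TPM and 0.263 ± 0.0850 TPM. Those of CYC7 rested on 3, 2 and 0 counts and those of NDE2 on 9, 7 and 11 counts in the 3 WT libraries. No member overlaps another protein-coding gene of the RefSeq annotation, and other annotated features were not searched. Every member's count was a whole number in every library, so no read of a member was shared out between genes in the authors' counting.

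After Sth1 depletion (STH1-AID cells, IAA against DMSO) 7 of 9 complex IV genes fell and 2 rose, while of 13 ATP synthase genes 5 rose and 4 fell. Both cytochrome c genes and 2 of 3 NADH dehydrogenase genes rose. No test between complexes was run. In all, 15 of 42 members rose and 12 fell at an adjusted p below 0.05, against 35.9% of all protein-coding genes that rose and 40.9% that fell, so the share of members that rose was near the background and the share that fell was under it. Their median log2 fold change was 0.19, beside -0.06 over all genes. Past a log2 fold change of 1 there were 2 members that rose, where 10.5% of all genes did, and 7 that fell, where 15.9% of all genes did. Scaling by total library size in place of TMM moved the median of all genes to -0.31 and that of the members to -0.06, and 6 members then rose and 13 fell. Without replicate 1 of the STH1-AID DMSO libraries 8 members rose.

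Complex IV, cytochrome c oxidase, showed the most falls, with 7 of its 9 nuclear subunits lower after Sth1 depletion and 2 higher. COX4 (YGL187C), a subunit needed for assembly of the enzyme, had 3.85, 2.83 and 3.22 CPM in Sth1-depleted libraries, against 8.52, 7.68 and 8.67 CPM in DMSO libraries. The 3 depleted libraries lay well under the 3 controls (2.51-fold lower, log2 fold change -1.33, SE 0.18, adjusted p = 1.54e-06). COX5A (YNL052W), the subunit V isoform that is used in air, had 17.6, 25.9 and 25.5 CPM with IAA, against 52.2, 63.3 and 57.4 CPM with DMSO (2.50-fold lower, log2 fold change -1.32, SE 0.14, adjusted p = 8.37e-08). Again no depleted library reached a control. COX5B, the isoform used when oxygen is scarce, went the other way, with 8.95, 7.76 and 8.44 CPM with IAA, against 5.06, 5.10 and 3.93 CPM with DMSO (1.79-fold higher, log2 fold change 0.84, SE 0.18, adjusted p = 0.000374). The ratio of COX5A to COX5B CPM within a library, which no scaling between libraries touches, was 1.96, 3.34 and 3.03 with IAA, against 10.3, 12.4 and 14.6 with DMSO. Each depleted library lay under each control library.

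The remaining complex IV genes are small structural subunits. COX9 had 4.08, 5.604 and 3.77 CPM with IAA, against 9.05, 9.66 and 8.04 CPM with DMSO (1.99-fold lower, log2 fold change -0.99, SE 0.22, adjusted p = 0.00037), and its groups did not overlap. COX7 (YMR256C) fell by 1.21, COX12 (YLR038C) by 0.79, COX8 (YLR395C) by 0.70 and COX13 (YGL191W) by 0.51 on the log2 scale, with SEs of 0.40, 0.25, 0.28 and 0.16. COX7 rested on 18, 27 and 7 counts with IAA, against 42, 67 and 44 counts with DMSO, and no depleted library reached a control for any of these genes. COX6 (YHR051W) was the only member of the complex besides COX5B that rose, with 20.7, 25.9 and 20.7 CPM with IAA, against 13.7, 19.5 and 16.4 CPM with DMSO (log2 fold change 0.44, SE 0.15, adjusted p = 0.0115). Its call was lost with total library size, without replicate 1 of DMSO and without replicate 2 of IAA, and that of COX8 was lost without replicate 2 or 3 of DMSO or replicate 3 of IAA. That of COX7 was lost without replicate 3 of IAA.

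The ATP synthase held the largest fall of the set. ATP20 (YPR020W), subunit g, which takes part in dimer formation of the enzyme, had 0.746, 0.616 and 0.333 CPM in Sth1-depleted libraries, or 13, 10 and 6 counts, against 5.73, 7.63 and 7.50 CPM, or 119, 166 and 166 counts, in DMSO libraries. It was 12.3-fold lower (log2 fold change -3.62, SE 0.32, adjusted p = 4.03e-09), with every depleted library several times under every control. ATP5 (YDR298C), the subunit that links the catalytic head to the stator, had 19.1, 24.3 and 20.98 CPM with IAA, against 57.9, 64.2 and 67.0 CPM with DMSO (2.94-fold lower, log2 fold change -1.56, SE 0.13, adjusted p = 1.87e-09). TIM11 (YDR322C-A), subunit e, the partner of subunit g in the dimer, fell by 1.08 (SE 0.18) and ATP17 (YDR377W), subunit f, by 0.51 (SE 0.19) on the log2 scale. The catalytic subunits ATP1 (YBL099W) and ATP2 rose instead, by 0.38 and 0.38, as did ATP7 (YKL016C), ATP14 and ATP16 (YDL004W), the delta subunit, by 0.50, 0.60 and 0.39. ATP14 had 71.2, 86.5 and 77.5 CPM with IAA, against 48.3, 52.6 and 53.8 CPM with DMSO (log2 fold change 0.60, SE 0.10, adjusted p = 1.54e-05), and its groups did not overlap. ATP2 had 689.5, 746 and 806 CPM with IAA, against 532, 576 and 611 CPM with DMSO (SE 0.13, adjusted p = 0.0147), a call lost with total library size and without replicate 1 of DMSO or replicate 3 of IAA. Of the 5 ATP synthase genes that rose, 1 passed with total library size and 3 without replicate 1 of DMSO.

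Cytochrome c carries electrons between complexes III and IV and has a major and a minor gene. The major one, CYC1 (YJR048W), had 17.9, 23.0 and 22.6 CPM after Sth1 depletion, against 11.2, 12.4 and 14.6 CPM with DMSO (1.66-fold higher, log2 fold change 0.73, SE 0.14, adjusted p = 8.63e-05). The minor one, CYC7, which is better known from cells short of oxygen or under stress, had 10, 16 and 21 counts with IAA, against 2, 2 and 4 counts with DMSO (log2 fold change 2.82, SE 0.58, adjusted p = 0.000195). Both genes were higher in every depleted library, but CYC7 stayed far under CYC1 and its fold rests on 2 to 4 counts per control library. Among the NADH dehydrogenases, NDI1 (YML120C), the internal one, had 160.5, 199.5 and 219 CPM with IAA, against 104.6, 134 and 125 CPM with DMSO (log2 fold change 0.67, SE 0.13, adjusted p = 0.000104). NDE2 had 38, 44 and 49 counts with IAA, against 10, 17 and 21 counts with DMSO (log2 fold change 1.77, SE 0.29, adjusted p = 2.14e-05). NDE1, the most abundant member, had 991, 976 and 875 CPM with IAA and 933, 872 and 827 CPM with DMSO, with a log2 fold change of 0.11 (SE 0.20, adjusted p = 0.617), and its groups overlapped.

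In complex III, the cytochrome bc1 complex, 3 of 9 genes rose and none fell after Sth1 depletion. These were CYT1 (YOR065W), cytochrome c1, QCR2 (YPR191W), a core subunit, and QCR6 (YFR033C), a small acidic subunit, at log2 fold changes of 0.44, 0.37 and 0.55. All 3 calls were lost with total library size and without replicate 1 of DMSO, 1 of the 3 remained without replicate 2 or without replicate 3 of IAA, and the 9 values ran from -0.62 to 0.55. In complex II, succinate dehydrogenase, SDH3 (YKL141W), a membrane anchor, had 12.2, 15.5 and 10.9 CPM with IAA, against 26.8, 29.1 and 26.2 CPM with DMSO (2.13-fold lower, log2 fold change -1.09, SE 0.14, adjusted p = 7.28e-07). SDH2 (YLL041C), the iron-sulphur subunit, rose by 0.37 (SE 0.14), a call lost without replicate 1 of DMSO or replicate 2 or 3 of IAA, while SDH1 (YKL148C), the flavoprotein, and SDH4 (YDR178W), the other anchor, had values of 0.32 and 0.06 that did not pass. The regulators INH1 (YDL181W), the ATPase inhibitor, and STF2 (YGR008C) did not pass either.

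**Figure D2:**
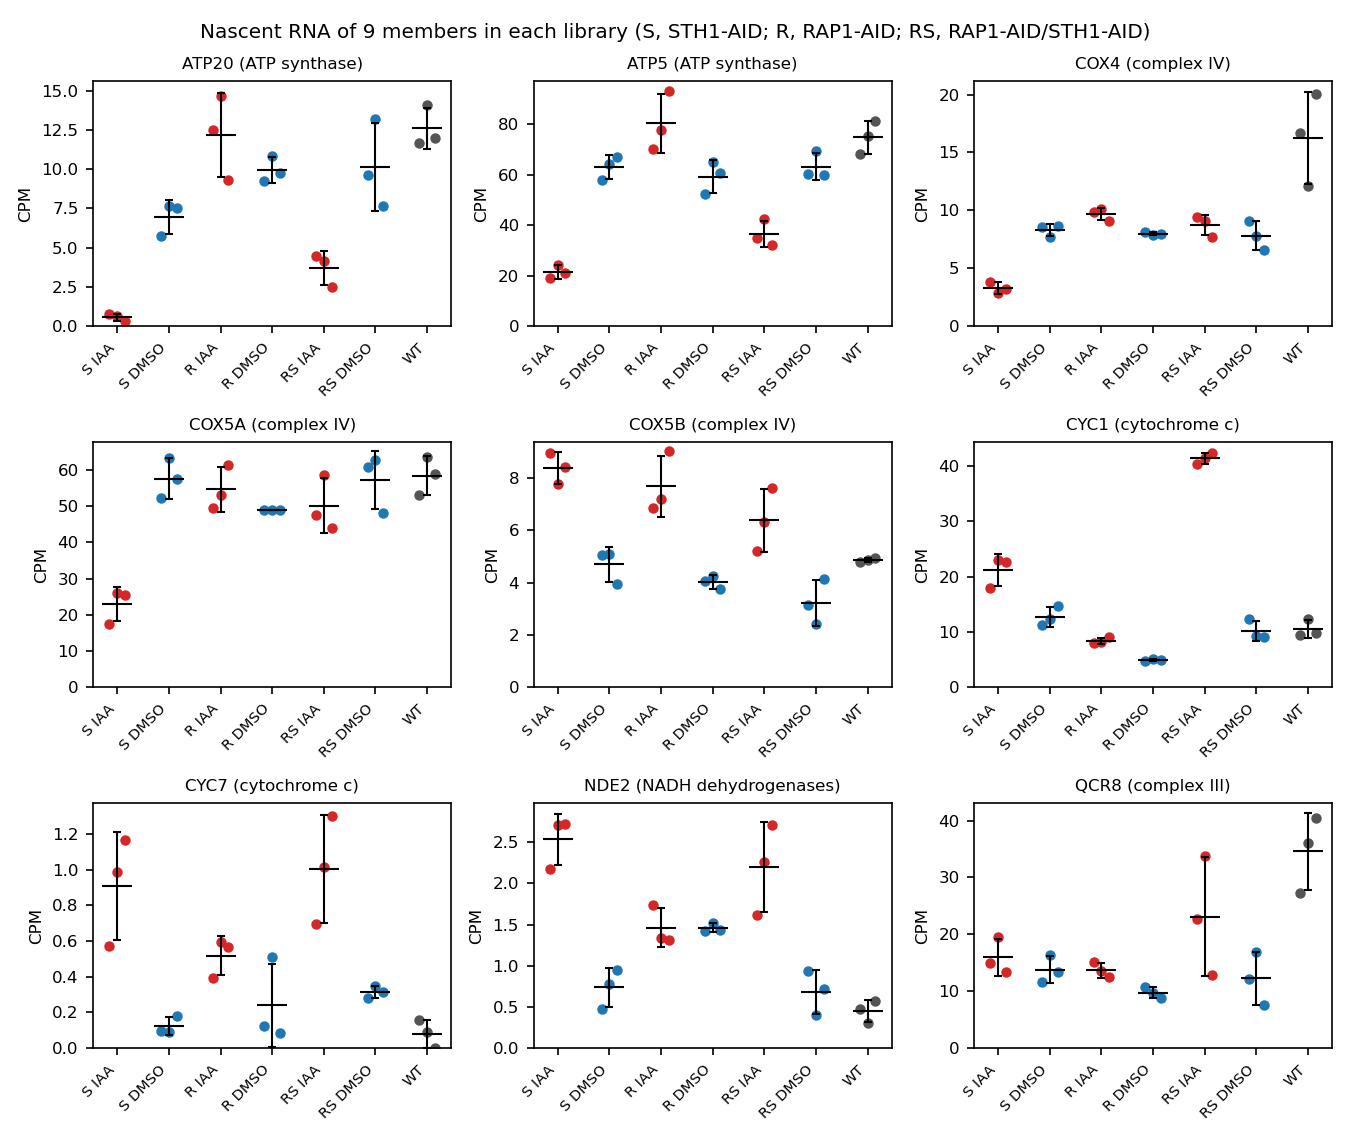
CPM (y axes, each from 0) of 9 members in every library of STH1-AID (S), RAP1-AID (R), double-degron (RS) and WT cells: points are single libraries, black bars the mean and SD of 3 replicates, red IAA, blue DMSO and grey WT (x axes, conditions). ATP20, ATP5, COX4 and COX5A were low in all 3 Sth1-depleted libraries, CYC1 was highest in the co-depleted ones, and QCR8 and COX4 were highest in WT.

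After Rap1 depletion (RAP1-AID cells, IAA against DMSO) 12 of 42 members rose and none fell, and 41 of the 42 values were positive. Over all genes 12.8% rose and 13.3% fell, so rises were more frequent among the members than in the background. Their median was 0.34, beside 0.01 over all genes. In the DMSO controls of this strain 27 of 42 members were lower than WT, where 22.1% of all genes were. For most members a rise here is thus measured from a level under WT. The summed TPM of the members was 6567, 6302 and 7168 with IAA and 4609, 4320 and 5023 with DMSO. In WT it was 6120, 6938 and 7631 TPM. For falls, 0 members passed in edgeR or in DESeq2's Wald test, and 0 had an unadjusted p below 0.05. Past a log2 fold change of 1 there were 2 members that rose, where 1.57% of all genes did, and none that fell, where 3.19% did. The replicate numbers pair the libraries of this strain, which the main fit does not use. The replicate block gave each replicate number 1 effect shared by all 7 conditions, and a pairing within this strain alone was not fitted. With the block 18 members rose, adding COX6 (YHR051W), COX12 (YLR038C), RIP1 (YEL024W), QCR10 (YHR001W-A), SDH3 (YKL141W) and ATP3 (YBR039W). Total library size, which moved the median of all genes to 0.13, gave 21. Without replicate 3 of IAA 5 members rose, and without replicate 1 of DMSO 7 did.

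The largest rise was that of STF2, a small protein related to the factors that stabilise the inhibited ATP synthase. It had 22.9, 13.2 and 31.4 CPM in Rap1-depleted libraries, against 5.66, 6.66 and 4.37 CPM in DMSO libraries (4.04-fold higher, log2 fold change 2.01, SE 0.36, adjusted p = 0.000343). All 3 depleted libraries were above the controls, though they spread widely. A list of 10 stress genes summed to 830 to 1236 CPM with IAA in this strain, against 502 to 722 CPM with DMSO, and its part in the STF2 result was not tested. QCR9 (YGR183C), a small subunit of complex III, had 55, 41 and 53 counts with IAA, against 24, 23 and 20 counts with DMSO (log2 fold change 1.05, SE 0.32, adjusted p = 0.0222), and lost its call without any of 4 single libraries (replicate 1 or 3 of IAA, replicate 1 or 3 of DMSO). COX5B had 6.87, 7.18 and 9.03 CPM with IAA, against 4.07, 4.25 and 3.75 CPM with DMSO (1.91-fold higher, log2 fold change 0.93, SE 0.18, adjusted p = 0.000762), with no overlap. Its partner COX5A had 49.5, 53.0 and 61.3 CPM with IAA and 48.9, 48.9 and 48.8 CPM with DMSO (log2 fold change 0.16, adjusted p = 0.42), so that the COX5A to COX5B ratio was 7.20, 7.38 and 6.79 with IAA, against 12.0, 11.5 and 13.0 with DMSO.

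CYC1 had 8.02, 8.21 and 9.03 CPM after Rap1 depletion, against 4.66, 5.04 and 4.85 CPM with DMSO (1.74-fold higher, log2 fold change 0.80, SE 0.15, adjusted p = 0.000543), and the replicates of each group were close. CYC7 had 10, 15 and 13 counts with IAA and 3, 11 and 2 with DMSO (log2 fold change 1.11, SE 0.53, adjusted p = 0.127), where replicate 2 of DMSO stood with the depleted libraries. The NADH dehydrogenases did not pass, with values of 0.31 for NDI1, 0.03 for NDE1 and 0.000811 for NDE2. The other 8 that rose lay between 0.31 and 0.65 on the log2 scale: ATP2, ATP5 (YDR298C), ATP7 and ATP14 of the ATP synthase, CYT1 and QCR2 of complex III, COX13 of complex IV and SDH4 of complex II. Of these, QCR2 (0.54) passed whichever library was left out. COX13 (0.47) lost its call without any one of 5 of the 6 libraries, all but replicate 2 of DMSO. ATP2 (0.44) and ATP7 (0.39) lost theirs without any of 3 libraries, ATP5 (0.44) and ATP14 (0.31) without replicate 1 of DMSO or replicate 3 of IAA, and CYT1 (0.55) and SDH4 (0.65) without replicate 3 of IAA. Without that library 1 gene each of complex III and the ATP synthase rose.

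After co-depletion of Rap1 and Sth1 (RAP1-AID/STH1-AID cells, IAA against DMSO) 21 of 42 members rose and 4 fell, where 32.2% of all genes rose and 37.5% fell. The median of the members was 0.49, beside -0.05 over all genes, and 34 of 42 values were positive. Of the 21 that rose, 11 were lower than WT in all 3 DMSO controls, a share not computed over all genes. Past a log2 fold change of 1 there were 6 members that rose, where 7.07% of all genes did, and 1 that fell, where 5.73% did. Total library size moved the median of all genes to -0.26 and that of the members to 0.29, with 15 members that rose and 6 that fell. Genes encoded in mitochondria, which Pol II does not transcribe, were also higher. Their summed level was 274 to 314 CPM in co-depleted libraries, against 147 to 207 CPM with DMSO, and 2 of the 6 tested rose. One of the list of 7, ATP8, had no count in any library. The part of this RNA in the results on the members was not tested.

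CYC1 rose most. It had 40.4, 41.5 and 42.3 CPM in co-depleted libraries, against 12.3, 9.22 and 9.06 CPM in DMSO libraries (4.06-fold higher, log2 fold change 2.02, SE 0.14, adjusted p = 6.78e-10), which set the co-depleted libraries apart from those of every other condition. NDE2 had 28, 38 and 50 counts with IAA, against 20, 8 and 16 counts with DMSO (log2 fold change 1.67, SE 0.30, adjusted p = 7.42e-05), and CYC7 had 12, 17 and 24 counts with IAA, against 6, 7 and 7 counts with DMSO (log2 fold change 1.66, SE 0.48, adjusted p = 0.0052). Both stayed scarce. CYT1 had 90.8, 100.4 and 85.2 CPM with IAA, against 45.6, 46.7 and 33.9 CPM with DMSO (2.19-fold higher, log2 fold change 1.13, SE 0.15, adjusted p = 1.75e-06). It belongs to complex III, of which 8 of 9 genes rose, the exception being QCR10, with a value of 0.53 (adjusted p = 0.254). Without replicate 3 of DMSO, and with total library size, RIP1 (YEL024W), COR1 (YBL045C), QCR7 (YDR529C) and QCR9 lost their calls and 4 of the 9 rose. Without replicate 2 of IAA 5 rose. RIP1, the Rieske iron-sulphur protein, and QCR7, a small subunit, rose by 0.49 and 0.56. The rises of complex III lay between 0.36 for COR1 and 1.13 for CYT1, with QCR8 (YJL166W) at 0.92 despite overlap of its groups.

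The ATP synthase again divided. ATP20 had 4.45, 4.17 and 2.49 CPM in co-depleted libraries, against 9.64, 13.2 and 7.63 CPM with DMSO (2.74-fold lower, log2 fold change -1.45, SE 0.24, adjusted p = 2.49e-05), and ATP5 had 34.9, 42.4 and 32.4 CPM with IAA, against 60.3, 69.3 and 59.8 CPM with DMSO (1.73-fold lower, log2 fold change -0.79, SE 0.12, adjusted p = 1.71e-05). No co-depleted library reached a control for either gene. TIM11 had 13.6, 17.1 and 10.2 CPM with IAA, against 22.5, 20.9 and 17.0 CPM with DMSO (log2 fold change -0.56, SE 0.17, adjusted p = 0.00741), and SDH3 of complex II had 25.4, 30.4 and 24.0 CPM with IAA, against 34.4, 38.3 and 29.1 CPM with DMSO (log2 fold change -0.35, SE 0.13, adjusted p = 0.0252). Their groups overlapped, and without replicate 3 of the co-depleted libraries neither passed, leaving 2 members that fell. The SDH3 call was also lost without replicate 1 of IAA and without replicate 1 or 2 of DMSO. ATP1, ATP2, ATP7, ATP14, ATP16 and ATP18 (YML081C-A) rose, by 0.41 to 0.84, and 10 of the 13 rose without replicate 3 of IAA. ATP14 had 102, 104 and 91.9 CPM with IAA, against 58.2, 61.0 and 47.4 CPM with DMSO (log2 fold change 0.84, SE 0.10, adjusted p = 4.80e-07), and ATP2 had 1152, 1252 and 979.8 CPM with IAA, against 725, 745 and 543 CPM with DMSO (log2 fold change 0.75, SE 0.13, adjusted p = 7.10e-05).

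In complex IV only COX5B and COX6 rose after co-depletion and none of the 9 fell. COX5B had 5.20, 6.32 and 7.63 CPM with IAA, against 3.14, 2.40 and 4.13 CPM with DMSO (1.97-fold higher, log2 fold change 0.98, SE 0.19, adjusted p = 0.000148). COX5A had 47.5, 58.6 and 44.0 CPM with IAA and 60.8, 62.8 and 48.1 CPM with DMSO (log2 fold change -0.19, adjusted p = 0.221), and COX9 had a value of -0.29 (adjusted p = 0.211). These groups overlapped, and of the alternatives run both genes passed only with total library size. The COX5A to COX5B ratio was 9.13, 9.27 and 5.77 with IAA, against 19.4, 26.1 and 11.7 with DMSO, so it was lower with IAA in every library of each of the 3 strains. The internal dehydrogenase NDI1 rose (log2 fold change 0.84, SE 0.13, adjusted p = 1.28e-05), and so did INH1 (log2 fold change 0.94, SE 0.25, adjusted p = 0.00274). NDE1 had 1726, 2360.3 and 1456 CPM with IAA and 1539.9, 1696 and 964 CPM with DMSO, a difference of 0.40 on the log2 scale that did not pass (SE 0.20, adjusted p = 0.0789). NDE1 passed with DESeq2's Wald test, without replicate 2 of DMSO and without replicate 3 of IAA.

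**Figure D3:**
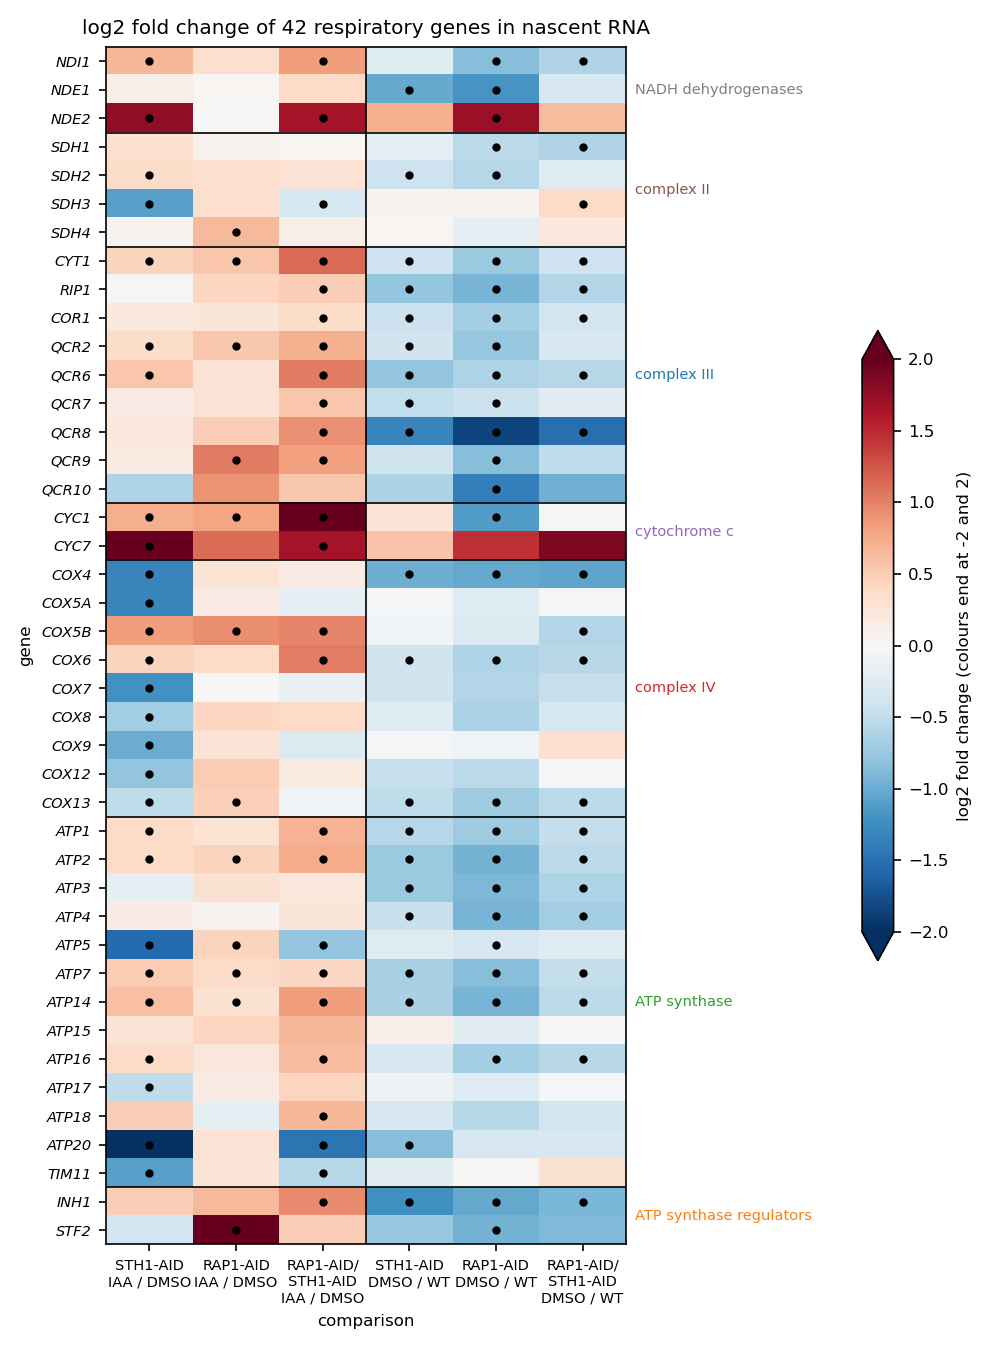
Log2 fold change (colour, cut at -2 and 2) of the 42 members (rows, grouped by complex) in the 3 IAA against DMSO comparisons (left) and the 3 DMSO controls against WT (right); a black dot marks an adjusted p below 0.05. Complex IV was mostly blue after Sth1 depletion (7 of 9 fell), complex III was red after co-depletion (8 of 9 rose, 4 of 9 without replicate 3 of DMSO or with total library size), and the controls were mostly blue against WT (20, 27 and 19 of 42 fell).

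The 3 IAA comparisons do not share control libraries. ATP2, ATP7, ATP14, COX5B, CYC1, CYT1 and QCR2, 7 of 42 members, rose in each, where 5.31% of all genes did. ATP3, ATP4 (YPL078C), ATP15 (YPL271W), NDE1, QCR10 and SDH1, 6 of 42, passed in none, where 11.1% of all genes did. Of the 4 members that fell after co-depletion (ATP5, ATP20, SDH3 and TIM11), all 4 fell after Sth1 depletion, as did 82.7% of all genes that fell after co-depletion. They were 4 of the 12 that fell after Sth1 depletion, where 75.8% of such genes fell after co-depletion too. Of the 15 members that rose after Sth1 depletion 14 rose after co-depletion, where 74% of such genes did, and these were 14 of the 21 that rose after co-depletion, where the share over all genes was 82.5%. These shares are descriptions and were not tested.

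A test of the difference between IAA effects compared co-depletion with each single depletion. Against Sth1 depletion 11 of 42 members differed, where 30% of all genes did. All 11 were more positive after co-depletion (0 in the other direction at an adjusted or unadjusted p below 0.05). Of 5742 genes in all, 1123 were more positive and 602 more negative, so the lean was not confined to the members. In DESeq2's Wald test 11 members differed. Over the 42 members the difference had a Spearman correlation of -0.50 with gene length, so shorter members tended to have more positive values. In the other comparisons this correlation lay between -0.18 and 0.25. The part of length in these results was not tested. The largest differences were those of ATP20 (2.16, SE 0.41, adjusted p = 0.00052), COX4 (1.49, SE 0.24, adjusted p = 0.000123) and CYC1 (1.29, SE 0.20, adjusted p = 5.51e-05). Of complex IV, COX4, COX5A, COX6, COX8 and COX12 differed. COX6, COX8 and COX12 all lost this with only the libraries compared, and without any one of replicate 2 of STH1-AID DMSO, replicate 3 of STH1-AID IAA, replicate 3 of double-degron DMSO and replicate 1 or 2 of double-degron IAA, which left 2. Without replicate 3 of STH1-AID DMSO or replicate 1 of double-degron DMSO 3 of the 5 differed. Thus COX4 was 2.51-fold lower with IAA in STH1-AID cells, while in double-degron cells it had 9.43, 9.06 and 7.74 CPM with IAA and 9.08, 7.77 and 6.596 CPM with DMSO (log2 fold change 0.16, adjusted p = 0.395).

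Against Rap1 depletion 14 members differed, where 55% of all genes did (1476 more positive and 1683 more negative after co-depletion). The effect was more positive after co-depletion in 8 of the 14 members and more negative in 6. With total library size the balance was the other way, with 2 more positive (CYC1 and NDE2) and 10 more negative. The largest were ATP20 (-1.75, SE 0.32, adjusted p = 0.000168), NDE2 (1.67, SE 0.41, adjusted p = 0.00207) and STF2 (-1.52, SE 0.52, adjusted p = 0.0181). STF2 had 7.05, 13.4 and 4.38 CPM in co-depleted libraries and 6.55, 7.06 and 3.90 CPM with DMSO (log2 fold change 0.50, adjusted p = 0.24), and its difference was lost without replicate 3 of either IAA group. Without replicate 2 of the RAP1-AID IAA libraries 9 members differed, 4 of them more positive. The more positive ones numbered 3 without replicate 3 of double-degron DMSO, and 5 without replicate 3 of RAP1-AID DMSO or replicate 1 of RAP1-AID IAA.

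**Figure D4:**
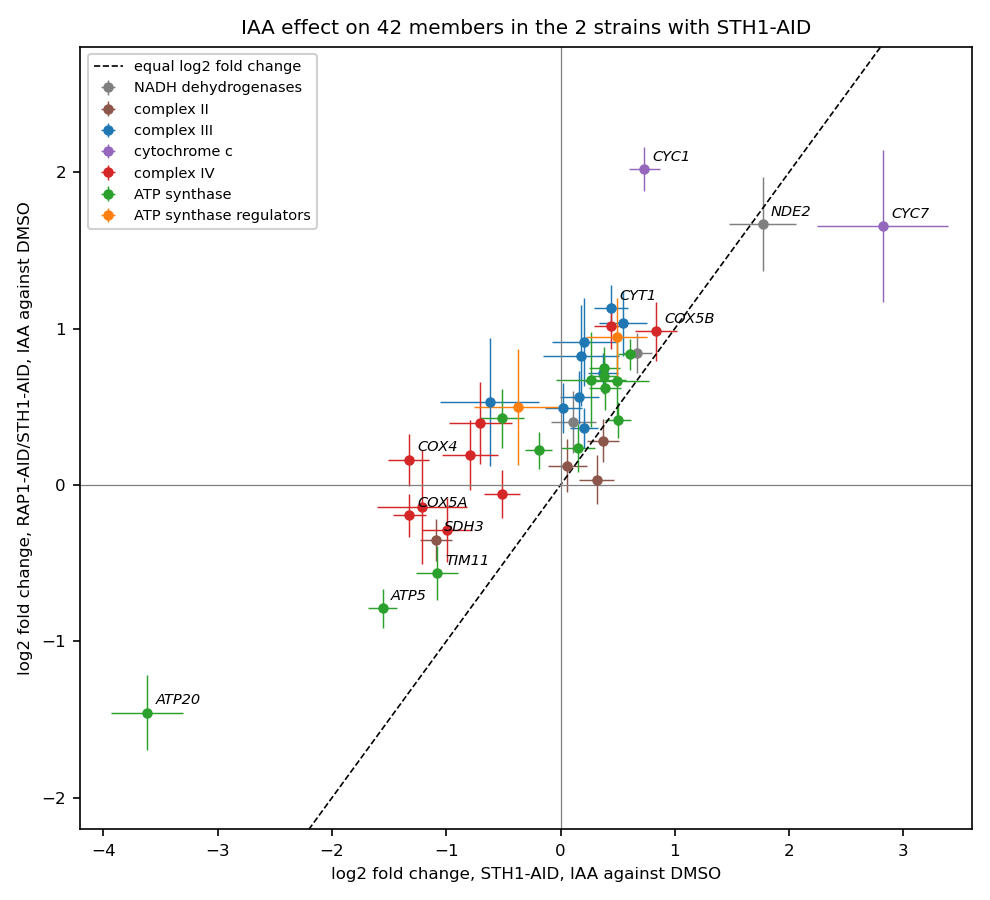
Log2 fold change of each member after co-depletion (y axis) against that after Sth1 depletion (x axis), with bars of 1 SE and colours by complex; the dashed line marks equal values. ATP20, ATP5, COX4 and COX5A lie above the line on the left, and CYC1 stands apart at 0.73 and 2.02.

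The DMSO controls were compared with WT to see where the strains stood without IAA. The members were mostly lower in all 3. In STH1-AID controls none rose and 20 of 42 fell, where 18.5% of all genes rose and 19.4% fell. In RAP1-AID controls 1 rose and 27 fell, where 22.7% rose and 22.1% fell, and in double-degron controls 1 rose and 19 fell, where 16.3% rose and 17% fell. The medians of the members were -0.41, -0.65 and -0.43, beside -0.01 over all genes each time. For STH1-AID controls, 0 members rose in DESeq2's Wald test too, and 0 were higher at an unadjusted p below 0.05. The 3 comparisons share the WT libraries. Markers of alpha cells moved in the same comparisons, with 1, 3 and 3 of 4 that rose at medians of 1.75, 3.42 and 2.75, and of 6 a-cell markers 1, 4 and 2 rose and 3, 0 and 1 fell. The alpha-cell sums were 45.2 to 55.4, 61.4 to 62.8 and 43.4 to 48.2 CPM in STH1-AID, RAP1-AID and double-degron controls, against 27.5 to 33.4 CPM in WT. Their part in the results on the members was not tested. Without replicate 3 of WT, 13 members fell in STH1-AID controls and 12 in double-degron controls, and without replicate 1 of the STH1-AID controls 12 fell there. Total library size moved the medians of all genes to 0.12, 0.17 and 0.13, and 12, 21 and 13 members then fell.

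In complex III all 9 values were negative in each control, and 7, 9 and 5 of them passed the test. These counts rest on single libraries. Without replicate 3 of WT 3 passed in STH1-AID controls and 1 in double-degron controls. In STH1-AID controls 3 passed without replicate 1 of DMSO or with total library size. In RAP1-AID controls 5 passed without replicate 2 of WT. In double-degron controls 1 passed without replicate 3 of DMSO, 3 without replicate 1 of WT and 2 with total library size. QCR8, a small subunit near the cytochrome b core, was the lowest in each. It had 11.7, 16.4 and 13.3 CPM in STH1-AID controls, 10.7, 9.71 and 8.77 CPM in RAP1-AID controls and 12.2, 16.9 and 7.58 CPM in double-degron controls, against 27.2, 36.1 and 40.4 CPM in WT. No control library reached WT, and the log2 fold changes were -1.32 (SE 0.28, adjusted p = 0.000899), -1.83 (SE 0.28, adjusted p = 3.31e-05) and -1.50 (SE 0.28, adjusted p = 0.000372). COX4 had 8.52, 7.68 and 8.67 CPM in STH1-AID, 8.14, 7.86 and 7.99 CPM in RAP1-AID and 9.08, 7.77 and 6.596 CPM in double-degron controls, against 16.6, 12.1 and 20.0 CPM in WT, at log2 fold changes of -0.97, -1.02 and -1.06. INH1 was lower by a like amount, at -1.23, -1.03 and -0.91.

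The ATP synthase had 7, 8 and 7 of 13 genes past the test, all lower than WT, and complex IV 3, 3 and 4 of 9. With total library size 1 complex IV gene passed in STH1-AID and 1 in double-degron controls, and 1 passed without replicate 1 of the STH1-AID controls and 2 in double-degron controls without replicate 3 of WT. In RAP1-AID controls 5 passed without replicate 1 of WT. ATP2 had -0.75, -0.94 and -0.52 and ATP14 -0.65, -0.93 and -0.54 in STH1-AID, RAP1-AID and double-degron controls. NDE1 had 933, 872 and 827 CPM in STH1-AID controls and 835, 618 and 873 CPM in RAP1-AID controls, against 1733, 1674 and 1863 CPM in WT (-1.001 and -1.18, adjusted p = 0.000596 and 9.04e-05). In double-degron controls NDE1 had 1539.9, 1696 and 964 CPM, which overlapped WT (log2 fold change -0.33, adjusted p = 0.218). NDI1 fell in RAP1-AID controls (-0.86) and in double-degron controls (-0.60), with -0.24 in STH1-AID controls, which did not pass.

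In RAP1-AID controls CYC1 had 4.66, 5.04 and 4.85 CPM, against 9.39, 12.4 and 9.71 CPM in WT (2.17-fold lower, log2 fold change -1.12, SE 0.15, adjusted p = 6.65e-06). QCR10 fell in the same controls, to 24, 19 and 14 counts, against 33, 63 and 37 counts in WT (log2 fold change -1.36, SE 0.40, adjusted p = 0.00964), a call lost without replicate 2 of WT. The only member that rose in these controls was NDE2, with 34, 33 and 33 counts in RAP1-AID controls, against 9, 7 and 11 counts in WT (log2 fold change 1.71, SE 0.33, adjusted p = 0.000323). In double-degron controls it was SDH3 (log2 fold change 0.39, SE 0.13, adjusted p = 0.0309), a call lost without replicate 1 or 2 of WT or replicate 1 or 2 of the controls. COX5A did not pass in any control (-0.02, -0.26 and -0.03), nor did COX9 or CYC7, and COX5B fell only in double-degron controls (-0.59, adjusted p = 0.022), a call lost with total library size, without replicate 1 or 3 of WT and without replicate 1 or 2 of the controls.

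Over the 7 conditions, 19 members had their highest mean CPM in co-depleted cells and 12 in WT cells, while 20 had their lowest in RAP1-AID controls and 14 in Sth1-depleted cells. The shares over all genes were not computed, so these counts describe the members only. Those lowest in Sth1-depleted cells were ATP3, ATP5, ATP17, ATP20, COX4, COX5A, COX7, COX8, COX9, COX12, COX13, SDH3, STF2 and TIM11. CYC7 and NDE2 were the only members lowest in WT.

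Other genes of the pathway come from lists of accessory factors. Over all genes 35.9% rose and 40.9% fell after Sth1 depletion, 12.8% and 13.3% after Rap1 depletion, and 32.2% and 37.5% after co-depletion. Of 33 assembly factors, which insert cofactors and join subunits, 7 rose and 20 fell after Sth1 depletion, 6 rose and 1 fell after Rap1 depletion, and 6 rose and 19 fell after co-depletion. Their median log2 fold changes were -0.74, 0.16 and -0.44. Of 13 translational activators of mitochondrial mRNAs, 3 rose and 7 fell after Sth1 depletion, 2 rose and 2 fell after Rap1 depletion, and 3 rose and 8 fell after co-depletion. Both lists thus had negative medians after co-depletion, where that of the 42 members was positive and that of all genes was -0.05.

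Of 11 transcription factors of respiratory genes, 4 rose and 4 fell after Sth1 depletion, 2 rose and 1 fell after Rap1 depletion, and 3 rose and 3 fell after co-depletion. The shares over all genes were 35.9% and 40.9%, 12.8% and 13.3%, and 32.2% and 37.5% in turn. HAP4 (YKL109W), the activating and regulated subunit of the Hap complex, had 0.14, 0.10 and 0.24 in these comparisons and did not pass. In the controls HAP4 averaged 840.2 ± 38.9 CPM in STH1-AID, 982 ± 134 CPM in RAP1-AID and 2144 ± 901 CPM in double-degron cells, against 2101 ± 268 CPM in WT (SD, n = 3 each). It fell in STH1-AID and RAP1-AID controls (-1.32 and -1.10) and had 0.03 in double-degron controls, which did not pass. HAP3 (YBL021C), a DNA-binding subunit, fell after Sth1 depletion (-1.98) and rose after Rap1 depletion (1.10) and co-depletion (0.98). CAT8 (YMR280C), an activator of genes for growth without glucose, rose after Sth1 depletion (2.01).

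Of 11 paralogs and accessory subunits outside the set, 9 were tested. After Sth1 depletion 6 rose and 2 fell, where 35.9% of all genes rose and 40.9% fell. STF1 (YDL130W-A), a second ATPase inhibitor, rose in each strain, by 2.31, 2.47 and 3.49 on the log2 scale. SDH9 (YJL045W), a copy of SDH1, rose by 2.34 after Sth1 depletion, while SDH1 itself had 0.32 and did not pass. ATP19 (YOL077W-A), another small ATP synthase subunit, fell after Sth1 depletion (-1.88) and co-depletion (-0.96). RCF1 (YML030W), a factor of the respiratory supercomplex, fell in the same comparisons (-1.25 and -0.87).

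The nearest protein-coding gene upstream of each member was taken from the annotation. It ran in the opposite direction (divergent) for 16 members and in the same direction (tandem) for 26. Of the 12 members that fell after Sth1 depletion, 2 had a divergent and 10 a tandem neighbour, and of the 15 that rose, 9 had a divergent and 6 a tandem one. The same split was not computed for all genes that rose or fell, so it has no background and was not tested. Of the 16 divergent neighbours, 10 rose and 2 fell after Sth1 depletion, 2 rose and 1 fell after Rap1 depletion, and 7 rose and 4 fell after co-depletion. Of 24 tandem neighbours tested, 10 rose and 7 fell, 5 rose and 2 fell, and 9 rose and 8 fell in the same comparisons. The shares over all genes that rose and fell were 35.9% and 40.9%, 12.8% and 13.3%, and 32.2% and 37.5%. After Sth1 depletion member and neighbour were both called in 7 divergent pairs, which all moved in the same direction, and in 11 tandem pairs, of which 6 did. After co-depletion 6 of 8 such divergent pairs and 6 of 8 tandem pairs moved in the same direction. The share over all neighbouring gene pairs was not computed.

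The divergent neighbours with the largest changes had few reads in the controls. YBL044W, 481 bases from COR1, had 44, 98 and 48 counts in Rap1-depleted libraries, against 3, 4 and 2 counts with DMSO, while COR1 had a log2 fold change of 0.24 (adjusted p = 0.159). YLR296W, 604 bases from ATP14, had 10, 22 and 25 counts in Sth1-depleted libraries, against 0 counts in each DMSO library, while ATP14 rose by 0.60. The tandem neighbour of ATP20, MCM4 (YPR019W), ends 318 bases before it and fell by 1.33 on the log2 scale after Sth1 depletion.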

How the data were processed

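Nascent RNA bound to FLAG-tagged Rpb3 was sequenced from 21 libraries, 3 biological replicates of 7 conditions. Per the submitters' processing notes and the study's methods, reads were trimmed with cutadapt 1.9.1, aligned with STAR 2.5.2a and assigned by strand to genes of Ensembl R64-1-1 with RSEM 1.3.0, and DESeq2 1.12.3 was used for the study's own tests. The authors deposited RSEM expected counts per gene, not normalized, and TPM values scaled to effective gene length and library. The deposited expected counts were rounded to whole numbers for all tests, and TPM served only for levels between genes. Every deposited column belonged to 1 library, and 0 were left unmatched.

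The 42 members and all other gene lists were chosen with earlier results of these data known. Counts were scaled with TMM, features with low counts were removed with filterByExpr, and edgeR 4.0.16 (R 4.3.3) fitted 1 mean per condition over all 21 libraries (quasi-likelihood test, 14 residual degrees of freedom). The Benjamini-Hochberg adjustment ran over 5742 protein-coding genes, and every adjusted p in the text is of this kind unless another tool is named. A gene rose, fell or differed at an adjusted p below 0.05. CPM values use the TMM library sizes, and a level is the mean ± SD of 3 libraries. The p-values rest on the spread between replicates estimated over all 21 libraries, not only over those compared. The fits were tested on simulated counts.

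Members named in full were, per IAA comparison, the 4 largest rises and falls that passed, the isoform pairs, the NADH dehydrogenases, the 4 highest in WT, and the largest control differences (2 each way) and differences of effects (3 each). Others named (such as QCR10 and COR1, members of small counts or beside a large neighbour change) were chosen after their values were seen.

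Deviations from the condition means correlated between same-numbered libraries by 0.200 to 0.474 in RAP1-AID cells, and between differently numbered ones by -0.291 to 0.0967. In STH1-AID cells these ranges were 0.0863 to 0.348 and -0.296 to 0.0330. The numbers, which come from the titles, thus go with a pairing of IAA and DMSO in both strains. In RAP1-AID/STH1-AID cells the ranges overlapped, at 0.0639 to 0.474 and -0.435 to 0.124. For controls and WT the same-numbered range was -0.0645 to 0.200, which was not taken as pairing. Deviations within a condition sum to 0, which lowers the differently numbered values. Alternatives were DESeq2 size factors, total library size, DESeq2's Wald test (version 1.42.0), other filters on low counts, adjustment over all features, an adjusted p of at most 0.01, a log2 fold change past 1, only the libraries compared, a replicate block, and each library left out in turn. Promoter windows were read from the R64 genome sequence of RefSeq, 300 bases before each ORF.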

Additional observations from a re-analysis of the deposited data

Results flagged for a closer look

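The results that follow are differences between IAA effects in different strains that passed the test of the difference itself (edgeR's quasi-likelihood test, adjusted p below 0.05). Each value is a difference of log2 fold changes, and both sets share the co-depletion libraries. Between co-depletion and Sth1 depletion, every member difference that passed was positive, where over all genes 1123 were positive and 602 negative. ATP20 differed by 2.16, COX4 by 1.49, CYC1 by 1.29, COX5A by 1.13, COX8 by 1.10 and COX12 by 0.98. ATP17 differed by 0.94, ATP5 by 0.77, SDH3 by 0.74, CYT1 by 0.69 and COX6 by 0.58. Over the 42 members this difference was correlated with gene length at -0.50 (Spearman).

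Between co-depletion and Rap1 depletion, positive differences were those of NDE2 at 1.67, CYC1 at 1.22, QCR6 at 0.74, COX6 at 0.61, CYT1 at 0.58, NDI1 at 0.53, ATP14 at 0.53 and ATP1 at 0.42. Negative differences were those of ATP20 at -1.75, STF2 at -1.52, ATP5 at -1.23, TIM11 at -0.84, SDH3 at -0.68 and COX13 at -0.53. With total library size, 6 of the 8 positive differences (COX6, CYT1, QCR6, ATP1, ATP14 and NDI1) did not pass, those of NDI1 and ATP14 at 0.21 and 0.20, and the 6 negative ones did. In the first set COX6, COX8 and COX12 did not pass with only the libraries compared.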

How the results depend on the processing

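With total library size, 6 members rose after Sth1 depletion (member median -0.063), 21 rose after Rap1 depletion, the co-depletion median was 0.29, STH1-AID controls had 1 member above and 12 below WT, the RAP1-AID control median was -0.47, and 2 members rose in double-degron controls. The replicate block also gave 2 there, with 16 and 12 members that rose and fell after Sth1 depletion and 23 and 4 after co-depletion. At an adjusted p of at most 0.01, 8 rose after Sth1 depletion, 6 after Rap1 depletion and 0 in double-degron controls, 13 fell in STH1-AID controls, and 6 and 7 effects differed between co-depletion and Sth1 or Rap1 depletion. Past a log2 fold change of 1, 2 rose and 7 fell after Sth1 depletion, 2 rose after Rap1 depletion, 6 rose and 1 fell after co-depletion, 3, 6 and 2 fell in the STH1-AID, RAP1-AID and double-degron controls with 0 that rose in the last, and 5 effects differed in each contrast. With only the libraries compared, 20 rose after Rap1 depletion. With single libraries left out, the counts ran from 8 to 16 (rose) after Sth1 depletion, 5 to 14 (rose) after Rap1 depletion and 2 to 4 (fell) after co-depletion, from 0 to 1 (rose) and 12 to 20 (fell) in STH1-AID controls, from 0 to 1 (rose) and 12 to 19 (fell) in double-degron controls, and from 9 to 15 effects that differed from Rap1 depletion. A log2 fold limit and a stricter p lower counts by construction. Fewer libraries moved counts in both directions. For fewer libraries, the scaling and the block the cause was not tested. Of 1547 repeats of 101 named values, 1490 stayed called or stayed uncalled, 36 lost the call, 21 gained it, and none changed sign with a call. Values that passed neither way were not checked for sign, so the 1490 can include changes of sign among them. CYC7, NDE2, ATP20, COX7, QCR9 and QCR10 had under 30 counts in every library of at least 1 condition, which limits their precision.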
